A study of Mus musculus with 12 samples.

Results

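Mature migratory dendritic cells are described here as 92 single cells out of 126095 kept cells (0.0730%) from 12 libraries of mouse white adipose tissue. They were selected on measured values. A kept cell held 700 to 22000 unique molecular identifiers (UMIs, each standing for 1 captured RNA molecule), 200 to 6000 genes and under 25% mitochondrial UMIs. A kept cell was taken when it carried at least 1 UMI of Ccr7, at least 1 UMI of Fscn1 and at least 2 UMIs of H2-Ab1, with no UMI of Cd3d, Cd3e, Cd3g or Cd79a, and such cells are called double-positive cells below.

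The libraries hold the stromal vascular fraction (SVF), the collagenase-released cells of fat without its floating adipocytes. All mice were male and 12 weeks old, and were gavaged in the morning and evening for 3 days. Epididymal (eWAT) and inguinal (iWAT) fat each gave 2 libraries labelled WT-Veh (C57BL/6J mice given the methylcellulose vehicle), 2 labelled ob/ob-Veh (Lepob/Lepob mice, which lack functional leptin, given vehicle) and 2 labelled ob/ob-Rosi (Lepob/Lepob mice given 30 mg/kg of the PPARγ agonist rosiglitazone). There was no lean group given rosiglitazone among them, so the drug can be followed only on the ob/ob background. The labels call the libraries of a group biological replicates and do not say whether the eWAT and iWAT libraries of 1 number came from 1 mouse.

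A dendritic cell that has met a maturation stimulus stops sampling its surroundings, shows the antigen it already holds on MHC molecules and moves through lymphatic vessels to the draining lymph node. The chemokine receptor Ccr7 guides this journey, and fascin (Fscn1) bundles the actin of its long processes. Mature cells also switch on NF-kB factors, costimulatory ligands and chemokines such as Ccl22 and Ccl17, which attract T cells that carry the receptor Ccr4. In fat, they connect the tissue with its lymph node.

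The libraries held 20132553 to 92475986 UMIs and 6472 to 17500 kept cells each, and the median kept cell held 1132 to 4961 UMIs. The double-positive cells held 774 to 20695 UMIs, with a median of 4709. Of the kept cells, 4165 shared a barcode with a kept cell of another library; 4 double-positive cells did so, and 0 shared one with another double-positive cell. Gm42418, a gene that overlaps ribosomal RNA, took 29186 to 80656 counts per 1000000 UMIs (CPM) in the libraries of replicate 1 and 1163 to 22916 in those of replicate 2, so the replicates of every group differ in this respect. The mutation of Lepob/Lepob mice leaves the Lep transcript in place, and free Lep RNA did not follow the labels. Over all kept cells there were 28.0 and 42.5 Lep UMIs per 100 UMIs of the adipocyte gene Adipoq in eWAT under WT-Veh, 3.95 and 16.2 under ob/ob-Veh and 240 and 390 under ob/ob-Rosi. Groups are therefore named by their labels throughout, and every direction given rests on these labels.

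The label of mature dendritic cells was first set against genes that the selection did not use. In eWAT, a double-positive cell carried UMIs of a median of 18 of 27 other genes of the maturation and migration programme, with a range of 4 to 27. Over all 92 cells, Ccl22 was found in 53.3% (exact 95% interval 42.6 to 63.7) at 1618 CPM over the summed cells. It was found in 8.54% of 761 cells gated as type 1 dendritic cells (cDC1, by Xcr1 and Clec9a), in 3.42% of 2337 gated as type 2 dendritic cells (cDC2, by Cd209a) and in 1.04% of 30620 macrophages (gated by Adgre1 and C1q), at 48.1, 26.5 and 3.58 CPM. Stromal cells, which should lack the gene, held it in 0.603% of 27353 cells. The median depth per library ran from 1600 to 10379 UMIs in the double-positive cells and from 1596 to 6863 in the stromal cells.

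Several other maturation genes were carried by a larger share of double-positive cells than of cDC1 or cDC2. Il4i1, a secreted amino acid oxidase of mature dendritic cells, was found in 65.2% of double-positive cells, 1.18% of cDC1 and 2.70% of cDC2. Cacnb3, a calcium channel subunit, was found in 56.5%, 3.02% and 1.03%, and Il12b, the shared subunit of interleukins 12 and 23, in 32.6%, 2.63% and 0.300%. Tbc1d4, a regulator of vesicle transport, was found in 75.0%, 33.6% and 13.8%. Cd83, a surface protein that steadies MHC class II, did not set the cells apart, at 83.7% of double-positive cells and 87.4% of cDC1. Cd86, a costimulatory ligand, was found in 30.4% of double-positive cells, 51.5% of cDC1 and 25.5% of cDC2. The 16 costimulation and checkpoint genes together took 11.5 of 10000 UMIs in double-positive cells, 3.20 in cDC1 and 6.46 in cDC2. The leukocyte gene Ptprc had a UMI in 59 of the 92 cells. These shares describe the selection and were not tested, because the same cells were used to choose it.

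**Figure D1:**
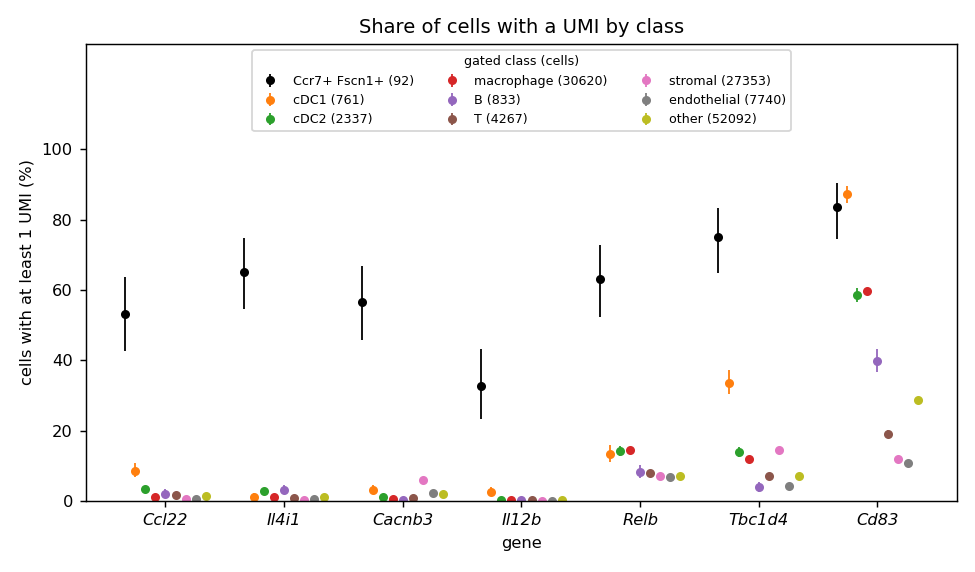
Share of cells with at least 1 UMI (vertical axis, percent) of 7 genes in the double-positive cells and in 8 other gated classes of kept cells over all 12 libraries, with exact 95% binomial intervals that cover counting error only. Ccl22 stands at 53.3% in the double-positive cells and at 8.54% in cDC1, while Cd83 stands at 83.7% and 87.4%.

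Markers of the 2 conventional subsets were rare in the double-positive cells. Xcr1 or Clec9a was found in 7 of the 92 and Cd209a in 5, with 0 cells carrying both and 80 carrying neither. The selection itself leans on few molecules. The 16 cells that carried exactly 1 UMI each of Ccr7 and Fscn1, just inside the threshold, held Ccl22 in 2 cells (12.5%) and Cacnb3 in 1, whereas the other 76 held them in 47 (61.8%) and 51. Just outside it, Ccl22 was found in 120 of 958 cells that lacked only Fscn1 (12.5%), in 17 of 1906 that lacked only Ccr7 (0.892%) and in 33 of 132 that carried under 2 UMIs of H2-Ab1 (25%). Fscn1 is no marker of its own in fat, since 40.5% of endothelial cells also held it.

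In 1 library as a whole, and in single cells of others, the data went against the label. The 11 double-positive cells of the iWAT library labelled WT-Veh 1 carried a median of 2 programme genes (0 to 9); Ccl22 was found in 1 of them, and Cacnb3, Il4i1, Tbc1d4 and Il12b in none. The programme took 17.8 of 10000 UMIs there, against 96.1 to 268 in the 6 eWAT libraries. The 8 endothelial markers took 58.6 of 10000 UMIs there, against 0.114 to 7.47 in eWAT, the 8 stromal markers 93.2 and the PPAR response list, which includes Fabp4 and Cd36, 397. These 11 cells are therefore not called mature dendritic cells below but the double-positive cells of that library, and 81 remain without them. Not all of those 81 carried much of the programme. The 2 cells of the iWAT library labelled ob/ob-Rosi 1 also stood high in endothelial markers (56.9 of 10000 UMIs), with 83.4 for the programme. In ob/ob-Rosi 2 of iWAT the programme took 66.7, and cells with 1 UMI of Ccr7 carried 5, 8 and 5 programme genes. Single cells of the eWAT libraries labelled ob/ob-Rosi carried 4 or 5 programme genes, with 111 to 988 of 10000 UMIs from endothelial or stromal markers.

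**Figure D2:**
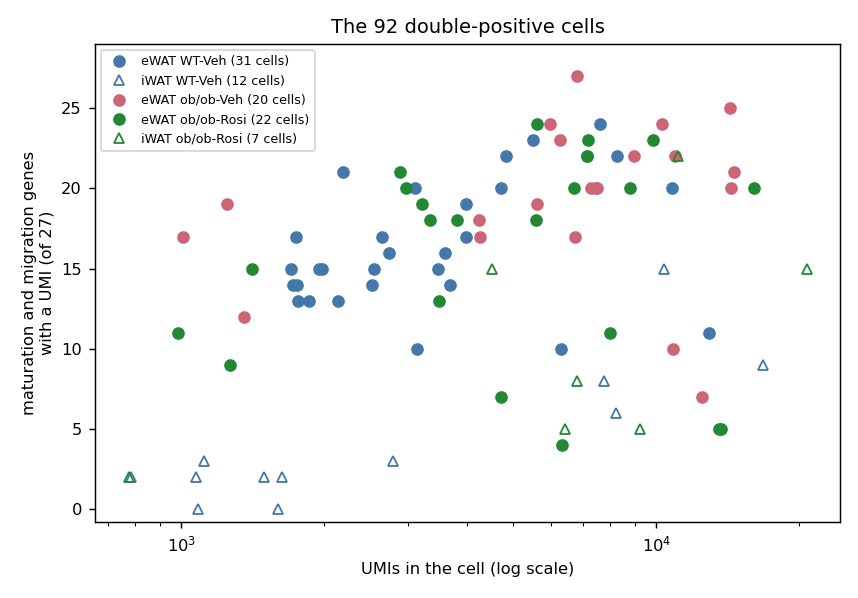
Each point is 1 double-positive cell, placed by its UMIs (horizontal axis, log scale) and by how many of 27 maturation and migration genes it carried (vertical axis); filled circles are eWAT, open triangles iWAT, and colours the labels. Most of the iWAT cells labelled WT-Veh lie at the bottom, at 0 to 9 genes, and most eWAT cells lie above 10.

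Ccl22 and Ccl17, the ligands of Ccr4, both lie on the plus strand of chromosome 8, at chr8:94745590-94751699 and chr8:94810453-94812036 (mm10, GENCODE M21). Both were called in the comparison of ob/ob-Veh with WT-Veh in eWAT, so the stretch before the RefSeq start of each is shown (GRCm38.p6, plus strand, 5′ to 3′). It covers chr8:94745643-94745672 for Ccl22, a start that lies inside the longer GENCODE gene, and chr8:94810413-94810442 for Ccl17.
Ccl22: ggagagagcgttTAAATAtcagaccttcct
Ccl17: ctccagagaggtTAAATAggtcacctcaat
The capitals mark TAAATA, a motif chosen after the sequences had been seen, which begins 29 bases before the Ccl22 start and 28 bases before the Ccl17 start. On either strand it was found in 12.7% of the 32851 windows of 250 bases before RefSeq starts and in 3 of the 20 programme genes that had a window. The match is a description of these letters and says nothing of what binds there.

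Double-positive cells were found mostly in eWAT and were sparse in iWAT. Within eWAT no difference between the labels passed the test, either per kept cell or per dendritic cell. The eWAT libraries held 20 and 11 of them under WT-Veh, 12 and 8 under ob/ob-Veh, and 8 and 14 under ob/ob-Rosi. This is 13.6 (8.30 to 21.0) and 17.0 (8.49 to 30.4), 13.1 (6.77 to 22.9) and 10.3 (4.46 to 20.3), and 8.48 (3.66 to 16.7) and 13.9 (7.60 to 23.3) per 10000 kept cells, with exact 95% binomial intervals. All 6 intervals overlap. In iWAT the counts were 11 and 1, 0 and 0, and 2 and 5, which is 6.45 and 1.02 per 10000 kept cells under WT-Veh and 2.07 and 2.86 under ob/ob-Rosi. The 0 cells of each ob/ob-Veh library allow a share of up to 4.16 per 10000 by the limit that 3 counts give, and the exact 95% interval reaches 5.12.

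**Figure D3:**
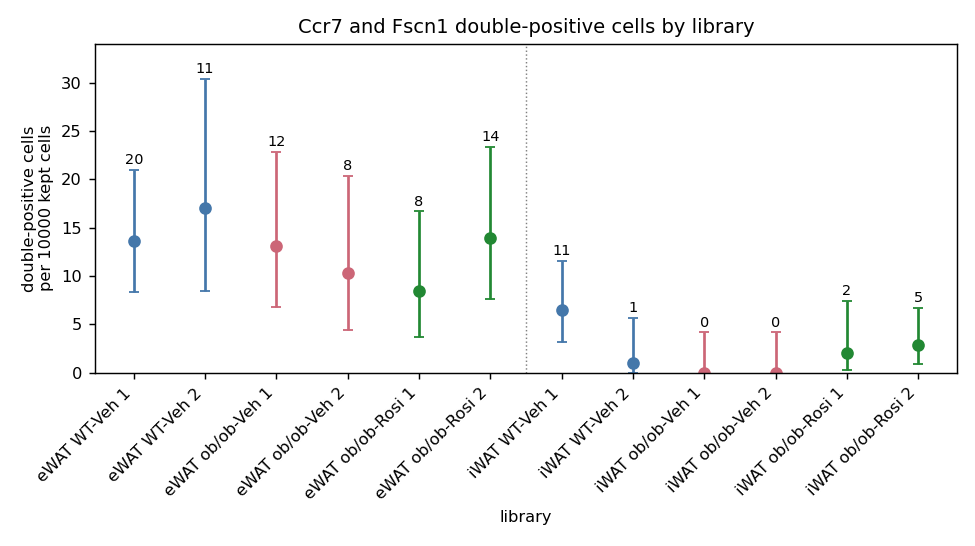
Double-positive cells per 10000 kept cells in each library (vertical axis), with the number of cells above each bar; bars are exact 95% binomial intervals, and for the 2 libraries at 0 they reach the limit that 3 counts would give. The 6 eWAT libraries lie between 8.48 and 17.0 and the 6 iWAT libraries between 0 and 6.45.

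By this selection every eWAT library lay above every iWAT library. The means were 12.7 and 2.06 per 10000, a difference of -10.7 for iWAT against eWAT (edgeR quasi-likelihood test over 9 cell classes, adjusted p = 9.94e-06; exact two-sided permutation test of 6 against 6 libraries, p = 0.00216, the smallest it allows). With only the 75 cells that carried at least 2 UMIs over Ccl22, Cacnb3, Il4i1, Tbc1d4, Samsn1 and Tmem123, a choice made after seeing the data, 68 were in eWAT and 7 in iWAT. With no minimum of H2-Ab1 UMIs the numbers were 135 and 89, and the iWAT library labelled WT-Veh 1, at 40.4 per 10000, lay above the 12.9 to 30.6 of eWAT, while the other 5 iWAT libraries lay between 0 and 8.27; the depot difference was then -13.0 (adjusted p = 0.00793). The iWAT matrices were filtered by the authors before deposit and the eWAT ones were not, and when every cell was thinned to 700 UMIs, which left 13 double-positive cells, the difference was -1.59 per 10000 (adjusted p = 0.193).

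Within eWAT no difference in number passed the test. The mean was 15.3 ± 2.41 (SD, n = 2) per 10000 under WT-Veh, 11.7 ± 1.96 under ob/ob-Veh and 11.2 ± 3.84 under ob/ob-Rosi (edgeR adjusted p = 0.835 for ob/ob-Veh against WT-Veh and 0.966 for ob/ob-Rosi against ob/ob-Veh). The exact permutation test of 2 against 2 libraries cannot go below p = 0.333. The total matters for this comparison, because the libraries held 220 and 132 gated dendritic cells under WT-Veh (double-positive, cDC1 and cDC2), 481 and 296 under ob/ob-Veh and 178 and 222 under ob/ob-Rosi. Per 10000 gated dendritic cells, the double-positive ones numbered 909 and 833 under WT-Veh, 249 and 270 under ob/ob-Veh and 449 and 631 under ob/ob-Rosi. Most of this total is the cDC2 gate, whose cells also carried macrophage and stromal RNA, as given below. On that total both ob/ob-Veh libraries were lowest and the labels did not overlap, but no difference passed the test (-611 for ob/ob-Veh against WT-Veh, edgeR adjusted p = 0.207, and 280 for ob/ob-Rosi against ob/ob-Veh, 0.440). In iWAT, ob/ob-Veh against WT-Veh passed the edgeR test, at 0 against 3.73 ± 3.84 per 10000 (adjusted p = 0.00971). That difference rests on the library whose 11 cells lacked the programme: with the condition of 2 UMIs above it was -1.09 (adjusted p = 0.196), and without that library it was -1.02 (0.230), in place of -3.73. It also missed the threshold without either ob/ob-Veh library (0.0792 and 0.0617). ob/ob-Rosi against ob/ob-Veh in iWAT was 2.46 ± 0.558 against 0 (adjusted p = 0.0660).

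The programme was present in all 6 eWAT libraries. It took 136 and 262 of 10000 UMIs under WT-Veh, 240 and 268 under ob/ob-Veh and 96.1 and 125 under ob/ob-Rosi. Both ob/ob-Rosi libraries were lowest, with their cells of 4 or 5 programme genes counted in, and these shares were not tested. Ccl5, a T cell-attracting chemokine, stood at 1874 and 6038 CPM under WT-Veh, 2796 and 2735 under ob/ob-Veh and 400 and 2333 under ob/ob-Rosi, and WT-Veh overlaps both other groups. Ccl22 stood at 425 and 1105 under WT-Veh, 5570 and 2928 under ob/ob-Veh, and 454 and 313 under ob/ob-Rosi. Both ob/ob-Veh libraries were above all 4 others. Ccl17 stood at 205 and 151, 1415 and 401, and 26.7 and 313, with the same 2 libraries highest. Few cells carried it: all 27 UMIs of ob/ob-Veh 2 came from 1 of 8 cells, 70 of the 124 of ob/ob-Veh 1 from 1 of 12, and 28 of the 31 of ob/ob-Rosi 2 from 1 of 14. Without the highest cell of each library Ccl17 stood at 146 and 32.6, 672 and 0, and 0 and 33.6 CPM, and the labels overlap.

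Other genes of the programme were read in all 6 eWAT libraries as well. Tmem123, a surface receptor linked to cell death, ran from 561 to 2883 CPM over the 6 eWAT libraries, and Samsn1, an adaptor that dampens signalling, from 323 to 1947. Relb, the NF-kB subunit typical of mature dendritic cells, stood at 378 and 636, 399 and 490, and 214 and 384 in the order of labels above. Traf1, an adaptor of tumour necrosis factor receptors, stood at 661 and 1377, 822 and 1085, and 454 and 970. Neither separates the labels. Cd83 stood at 834 and 1831, 2054 and 2007, and 774 and 596, with both ob/ob-Veh libraries highest by a narrow margin.

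Genes that instruct T cells followed no single pattern. The costimulatory receptor Cd40 stood at 47.2 and 106, 251 and 342, and 26.7 and 0 CPM, and the checkpoint ligand Cd274 (PD-L1) at 94.5 and 60.5, 160 and 372, and 0 and 20.2; in both, ob/ob-Veh was highest. Il12b stood at 78.7 and 711, 673 and 1902, and 427 and 465, and its groups overlap. Aldh1a2, the retinoic acid-producing enzyme that imprints gut homing and favours regulatory T cells, stood at 126 and 106, 696 and 178, and 80.1 and 70.7, and 8 of the 12 UMIs of ob/ob-Veh 2 came from 1 cell. Ido1 and Il10, a tryptophan-degrading enzyme and a suppressive cytokine, had 0 UMIs in all 92 cells.

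Genes of antigen presentation were read in the double-positive cells, whose selection itself required H2-Ab1. Over all libraries the MHC class II list took 237 of 10000 UMIs in them, below 398 in cDC1 and 313 in cDC2. The MHC class II genes took 180 to 298 of 10000 UMIs in the 6 eWAT libraries, and Cd74, which escorts class II molecules to the endosome, stood at 10344 and 13710, 15591 and 16008, and 8889 and 10717 CPM in the order of labels. H2-Aa, a class II alpha chain, stood at 5164 and 7808, 7008 and 6599, and 4164 and 6545, and its groups overlap. The genes of the selection are given as a description only: Ccr7 stood at 1968 and 3677, 2819 and 4058, and 1441 and 2010 CPM, and Fscn1 at 614 and 1180, 1164 and 1858, and 294 and 677.

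Other programme genes varied between libraries by as much as between labels. Marcksl1, an actin regulator, ran from 424 to 1831 CPM over the 6 eWAT libraries, and Gadd45b, a stress-response gene, from 587 to 1347. Apol7c, an apolipoprotein L of dendritic cells, stood at 47.2 and 151, 320 and 654, and 0 and 90.9 in the order of labels, and Nr4a3, a nuclear receptor tied to dendritic cell migration, at 346 and 530, 776 and 1486, and 427 and 313; in both, ob/ob-Veh was highest, and neither was called in the 3 eWAT comparisons with all double-positive cells. Cd63, a tetraspanin of late endosomes, was lowest there, at 445 and 817 against 1354 and 1074 under WT-Veh and 1895 and 1222 under ob/ob-Rosi, and was not called either.

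The other iWAT libraries held few cells. The 5 cells of ob/ob-Rosi 2 held 571 CPM of Ccl22, of which 64.5% came from 1 cell, with 369 of Il12b, 387 of Tbc1d4 and 14855 of Cd74. The 1 cell of WT-Veh 2 carried 15 of the 27 programme genes, with 13971 CPM of Cd74 and no UMI of Ccl22. Values of so few cells describe those cells. With 5 or more cells a library, ob/ob-Rosi 2 could be set against WT-Veh 1 in iWAT, and edgeR called 0 of 2035 genes (0%; 147 up and 93 down at p under 0.05 before adjustment, and 2 called by DESeq2). Of 26 tested programme genes, the unadjusted p was under 0.05 for 12 that were higher and 1 that was lower than in WT-Veh 1, the library whose cells lacked the programme, and the median log2 fold change was 2.45 beside 0 over all genes.

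**Figure D4:**
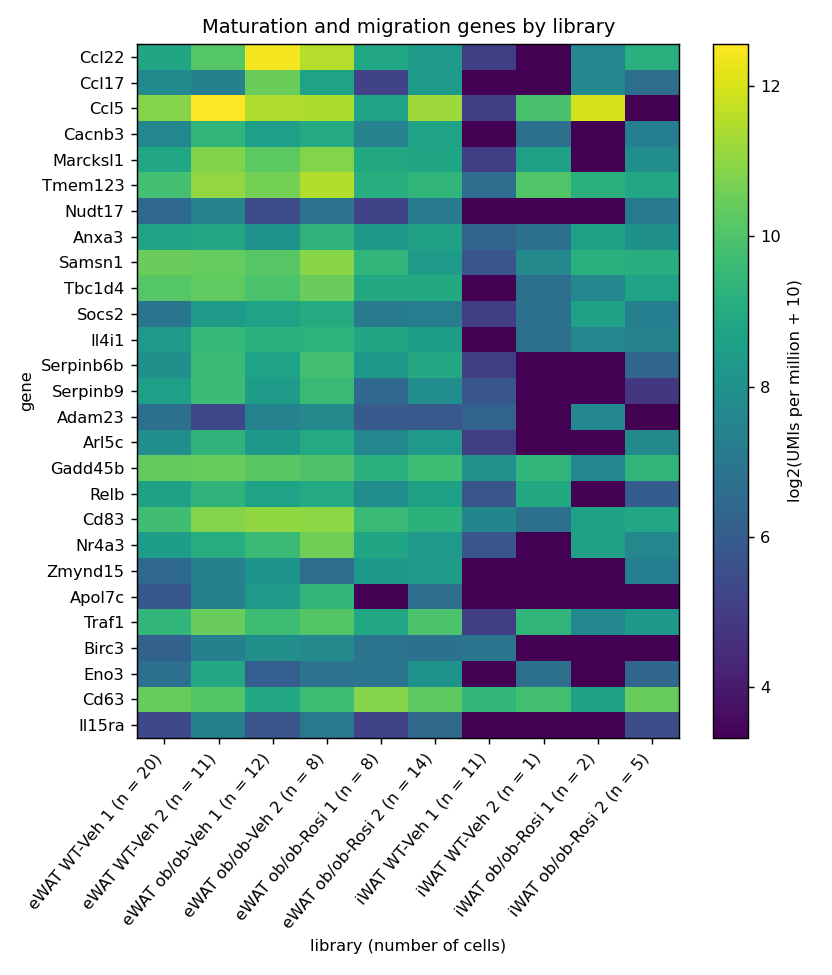
The 27 maturation and migration genes (rows) in the summed double-positive cells of the 10 libraries that hold any (columns, with the number of cells), coloured by log2 of CPM plus 10. The 6 eWAT columns carry most genes, the iWAT column labelled WT-Veh 1 is dark for Tbc1d4, Il4i1 and Cacnb3, and Ccl22 is brightest in the 2 columns labelled ob/ob-Veh.

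Ccl22 was unevenly spread over cells. In eWAT the median cell held 0.5 and 1 UMIs of it under WT-Veh, 11 and 27.5 under ob/ob-Veh, and 1.5 and 0 under ob/ob-Rosi. All 8 cells of the ob/ob-Veh 2 library and 10 of 12 of the ob/ob-Veh 1 library carried it, against 10 of 20 and 6 of 11 under WT-Veh and 5 of 8 and 6 of 14 under ob/ob-Rosi. These counts and shares are not corrected for depth. The median double-positive cell held 2351 and 5499 UMIs under WT-Veh, 6770.5 and 9627 under ob/ob-Veh and 3273.5 and 6516.5 under ob/ob-Rosi. Both ob/ob-Veh libraries were thus also the deepest. A single cell held 26.9% to 47.1% of a library's Ccl22 UMIs. Without that cell in each library the levels were 275 and 849, 3841 and 2526, and 249 and 207 CPM, and the 2 ob/ob-Veh libraries stayed highest.

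In eWAT, the double-positive cells labelled ob/ob-Veh were higher than those labelled WT-Veh in Ccl22, and lower in Apoe and in some genes of macrophages and of lipid handling, such as Trem2 and Lpl. Ccl17 and Aldh1a2 were higher too, but rested on few cells. Without the highest cell of each library Ccl17 overlaps between the labels, and Aldh1a2 stood at 65.6 and 68.4 against 451 and 75.5 CPM. UMIs were summed over the cells of each library with at least 10 of them, which left 4 eWAT libraries (both of WT-Veh, replicate 1 of ob/ob-Veh and replicate 2 of ob/ob-Rosi) and WT-Veh 1 in iWAT. Each obese group is thus 1 library there, assumed to vary like the 2 libraries labelled WT-Veh, with 1 residual degree of freedom. Since ob/ob-Veh is replicate 1 and ob/ob-Rosi replicate 2 in this fit, replicate number and label cannot be told apart for these groups. The edgeR quasi-likelihood test (adjusted p at most 0.05 and at least 1.1-fold) called 27 of 1760 genes, 9 higher and 18 lower (1.53%). An added fit with the 8 libraries of at least 5 cells called 0 of 2035 (0%; with 67 up and 72 down at p under 0.05 before adjustment, and 9 called by DESeq2). All genes called in the first fit lay on the same side there. That fit includes every library of the first one, so the shared side is no separate support.

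Some cells were high in RNA of another cell type, and each comparison was therefore also fitted without them, a choice made after seeing the data. Of the 92 cells, 15 held at least 100 of 10000 UMIs from the macrophage, B cell, T or NK cell, stromal or endothelial list, namely 4 of WT-Veh 1, 1 of ob/ob-Veh 2, and 2 of each ob/ob-Rosi library in eWAT, and 6 in iWAT. For genes on those lists this condition itself lowers the level. It does not remove RNA of other cells that is spread thinly over most cells. Without these cells edgeR called 49 of 1462 genes in ob/ob-Veh against WT-Veh at 10 cells a library, 33 higher and 16 lower (3.35%), and 9 of 1679 at 5 cells (0.536%). Of the 27 genes called at first, 19 were called in the former and 8 in the latter. Ccl22 was among both, at log2 fold changes of 2.85 (adjusted p = 1.28e-14) and 2.36 (0.00238), as were Apoe, Fabp4, Trem2, Mgp, Fn1 and Retnla. A single cell of ob/ob-Veh 1, at 96.3 of 10000 UMIs from macrophage markers, lay just under that limit. A limit of 50 of 10000 UMIs leaves it out too, with 26 cells in all, 13 of them in eWAT, and then 37 of 1440 genes were called at 10 cells (2.57%) and 6 of 926 at 5 (0.648%). Ccl22 (2.99 and 2.51, adjusted p = 7.46e-18 and 0.0115), Apoe and Mgp were called in both, Fabp4 and Trem2 at 10 cells alone (0.205 and 0.151 at 5), and Fn1 and Retnla in neither, at 0.31 and 0.19 with 10 cells.

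Of the 27 programme genes, 2 were called higher and 0 lower, with a median log2 fold change of -0.16, beside -0.07 over all genes tested. With 5 or more cells the median was 0.20 beside 0. There the unadjusted p was under 0.05 for 4 of 26, all of them higher, against 67 higher and 72 lower of all 2035 genes. Without the cells high in another lineage Eno3, a muscle-type enolase, was called lower as well at 10 cells (-2.34, edgeR adjusted p = 0.0284, and -2.22, 0.0446, with the limits of 100 and 50), and not at 5 (0.250 and 0.205). The 2 genes called over all the cells are the chemokines. Ccl22 was higher by a log2 fold change of 2.91 ± 0.52 (SE; edgeR adjusted p = 6.27e-06) and by 2.48 ± 0.54 with 5 or more cells (adjusted p = 0.346). Ccl17 was higher by 3.01 ± 0.70 (adjusted p = 0.00189; 0.636 with 5 or more cells, and 0.0874 with 5 or more once the cells high in another lineage are left out). Among 14 regulatory enzymes and signal inhibitors, of which 5 were tested, Aldh1a2 was called, at 2.60 ± 0.70 (adjusted p = 0.0178; 0.636 with 5 or more cells). edgeR called 0 of the 8 costimulation and checkpoint genes, 6 MHC class II genes, 12 NF-kB genes and 6 cytokine and chemokine genes tested, of which 0, 0, 1 and 1 had an unadjusted p under 0.05; over all genes DESeq2 called 2.

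The other genes called higher include several that were high in 1 library. Gm42418 was called too (log2 fold change 2.02), and it differs between replicate numbers as given above. Retnla, a secreted protein of alternatively activated macrophages and dendritic cells, stood at 315 and 30.3 CPM under WT-Veh and at 5741 and 282 under ob/ob-Veh. Of the 503 UMIs of ob/ob-Veh 1, 481 came from 1 cell, which carried 7 of the 27 programme genes and held 120 of that library's 141 UMIs of macrophage markers, the cell just under the limit of 100. Naaa, a lysosomal amidase of cDC1, stood at 15.7 and 0 against 434 and 44.6, and Dab2, an endocytic adaptor, at 110 and 30.3 against 799 and 0. The ob/ob-Veh 2 library, which was not in the first fit, overlaps WT-Veh in Retnla and Dab2. Gda, guanine deaminase, at 94.5 and 15.1 against 422 and 149, and Fn1, fibronectin, at 299 and 0 against 936 and 1367, were above WT-Veh in both libraries. The same cell of ob/ob-Veh 1 held 26 of its 37 Gda UMIs and 75 of its 82 Fn1 UMIs. Without the highest cell of each library Gda stood at 67.2 and 0 against 146 and 18.9 and Fn1 at 150 and 0 against 93.1 and 727 CPM, and the labels overlap in both.

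Mgp, matrix Gla protein, a secreted inhibitor of calcification, was called lower as well. It had 47 and 22 UMIs under WT-Veh, 0 and 0 under ob/ob-Veh and 27 and 173 under ob/ob-Rosi, in 17 of 20 and 10 of 11 cells, 0 of 12 and 0 of 8, and 6 of 8 and 13 of 14. Without the highest cell of each library 450 and 290 CPM remain under WT-Veh and 463 and 304 under ob/ob-Rosi.

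The 18 genes called lower include 2 macrophage markers, 3 genes of the PPAR response list, matrix genes and a B cell gene. Trem2 and Gpnmb, receptors of lipid-associated macrophages, had 65 and 16 and 44 and 10 UMIs under WT-Veh and 0 in both libraries of ob/ob-Veh (edgeR adjusted p = 9.54e-06 and 9.86e-05). Apoe, the lipid carrier of macrophages, stood at 14706 and 1892 CPM against 114 and 208 (log2 fold change -6.15 ± 0.61, adjusted p = 3.91e-20). Of the PPAR response list, 3 of 10 tested genes were lower, namely Fabp4, a fatty acid chaperone (-3.38 ± 0.52), Lpl, lipoprotein lipase (-3.60 ± 0.78), and Plin2, a lipid droplet coat (-3.59 ± 0.88). The lysosomal proteases Ctsb, Ctsd and Ctsl had log2 fold changes of -2.82, -2.76 and -4.67. None of these genes was called with 5 or more cells. In WT-Veh 1, 1 cell held 45 of the 65 Trem2 UMIs, 35 of the 44 of Gpnmb, 45 of the 93 of Lpl and 39 of the 89 of Plin2. Without that cell Trem2 fell from 1023 to 395 CPM in this library and Gpnmb from 693 to 178. Without the cells high in another lineage, Apoe (-4.78, adjusted p = 3.09e-07), Trem2 (0.0458) and Fabp4 (-1.83, 0.0471) were called at 5 cells, and Lpl, Plin2, Gpnmb and the 3 proteases were not (0.0508 to 0.248). With the limit of 50, Apoe (-3.39, 0.000487) and Ctsd (-3.39, 0.0271) were called at 5 cells.

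RNA of other cells moved with this comparison. The 13 macrophage markers took 80.9 and 12.1 of 10000 UMIs under WT-Veh, 16.1 and 2.23 under ob/ob-Veh and 52.3 and 13.4 under ob/ob-Rosi, and 2 of the 9 tested, Trem2 and Gpnmb, were called lower under ob/ob-Veh. Single cells held much of it, with 230 of the 514 macrophage UMIs of WT-Veh 1 in 1 cell, 120 of the 141 of ob/ob-Veh 1 and 169 of the 196 of ob/ob-Rosi 1. The B cell gene Ighm and the matrix genes Mgp, Bgn, Mfap5 and Col3a1 were called lower too, and the B cell markers took 20.9 of 10000 UMIs in WT-Veh 1 and at most 1.49 in the other 5 eWAT libraries. Of those 133 B cell UMIs 128 came from 1 cell, the one with the 230 macrophage UMIs, and 0.988 of 10000 remain without it. In all, 88 of the 92 cells carried at least 2 UMIs of the marker list of another lineage. Some of these genes were spread thinly over most cells, which leaving out high cells does not change. In WT-Veh 2, Trem2 had 16 UMIs in 10 of 11 cells, and Apoe was found in all 11. In ob/ob-Rosi 2, Trem2 had 21 UMIs in 11 of 14 cells, and Apoe was found in all 14. Beyond the fits without such cells, the part of RNA from other cells, free RNA included, in the lower macrophage and lipid genes was not tested.

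Rosiglitazone was followed from ob/ob-Veh to ob/ob-Rosi in eWAT. The double-positive cells labelled ob/ob-Rosi were lower in Ccl22, Aldh1a2 and Tnfaip3. They were higher in collagens and other stromal genes and in Fabp4, RNA that came mostly from 1 cell in each ob/ob-Rosi library for Col3a1 and from 1 cell of ob/ob-Rosi 2 for Fabp4. edgeR called 50 of 1760 genes, 37 higher and 13 lower (2.84%), and 3 of 2035 with 5 or more cells (0.147%), namely Col3a1, Mgp and Sparc. Of the 50 genes, 49 lay on the same side in both fits, and DESeq2 called 6 and 13. Without the 15 cells high in another lineage edgeR called 66 of 1462, 28 higher and 38 lower (4.51%), and 29 of 1679 at 5 cells, 16 higher and 13 lower (1.73%), among them 23 and 12 of the first 50. With the limit of 50 it was 61 of 1440 (4.24%) and 25 of 926 (2.7%). Both comparisons share the libraries labelled ob/ob-Veh, so a gene high there tends to go up in one and down in the other.

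The fit at 10 cells sets replicate 1 of ob/ob-Veh against replicate 2 of ob/ob-Rosi. Gm42418 and AY036118, both overlapping ribosomal RNA, were among its largest calls, at log2 fold changes of -6.39 and -6.31. In the double-positive cells Gm42418 stood at 26325 and 2406 CPM under WT-Veh, 57741 and 1769 under ob/ob-Veh and 27013 and 707 under ob/ob-Rosi, and AY036118 at 1023 and 106, 913 and 14.9, and 1228 and 10.1. In each pair replicate 1 is the higher. With both replicates of each label, at 5 cells, the log2 fold changes were -1.23 and 0.17 and neither was called. In a fit of the 6 eWAT libraries alone at 5 cells, 26 of 1150 genes were called with the replicate number as a block and 0 without it (87 up and 92 down at p under 0.05 before adjustment).

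Of the 27 programme genes, 1 was called lower, Ccl22, and 0 higher; the median log2 fold change was -0.62 beside 0.07 over all genes. With 5 or more cells 0 of 26 were called, the median was -1.07 beside 0.02, and the unadjusted p was under 0.05 for 11 that were lower and 1 that was higher, against 125 and 130 of all 2035 genes. Ccl22 was lower by a log2 fold change of -4.19 ± 0.70 (edgeR adjusted p = 4.63e-07) and of -3.58 ± 0.57 with 5 or more cells (adjusted p = 0.0555). Without the cells high in another lineage it was called in both fits, at -3.90 and at -2.85 (adjusted p = 0.000302 at 5 cells), and so was Tnfaip3 (0.00342), while Aldh1a2 was called at 10 cells alone (0.138 at 5). With the limit of 50 Ccl22 and Tnfaip3 were again called in both fits (adjusted p = 0.00261 and 0.0146 at 5 cells). Further programme genes were called in the fits without such cells. At 10 cells and the limit of 100, Ccl17 (-1.93, adjusted p = 0.0385), Cd83 (-1.54, 0.0173) and Samsn1 (-1.56, 0.0419) were lower and Eno3 was higher (2.35, 0.0403), and none of these was called at 5 cells. At 5 cells Apol7c was lower (-2.58, 0.0389). With the limit of 50 the genes called beside Ccl22 were Ccl17, Cd83, Samsn1 and Marcksl1 at 10 cells and Apol7c at 5, all lower. The Ccl22 levels of 454 and 313 CPM under ob/ob-Rosi lie below both ob/ob-Veh libraries and close to 425, the lower of the WT-Veh libraries. Aldh1a2 was lower by -3.31 ± 0.90 (adjusted p = 0.0105; 0.202 with 5 or more cells). Tnfaip3, the deubiquitinase that restrains NF-kB signalling, had 52 and 59 UMIs under ob/ob-Veh and 4 and 0 under ob/ob-Rosi (adjusted p = 6.42e-06; 0.141 with 5 or more cells), carried by 10 of 12 and 8 of 8 cells against 4 of 8 and 0 of 14. It was the only one of 12 tested NF-kB genes called in that first fit.

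**Figure D5:**
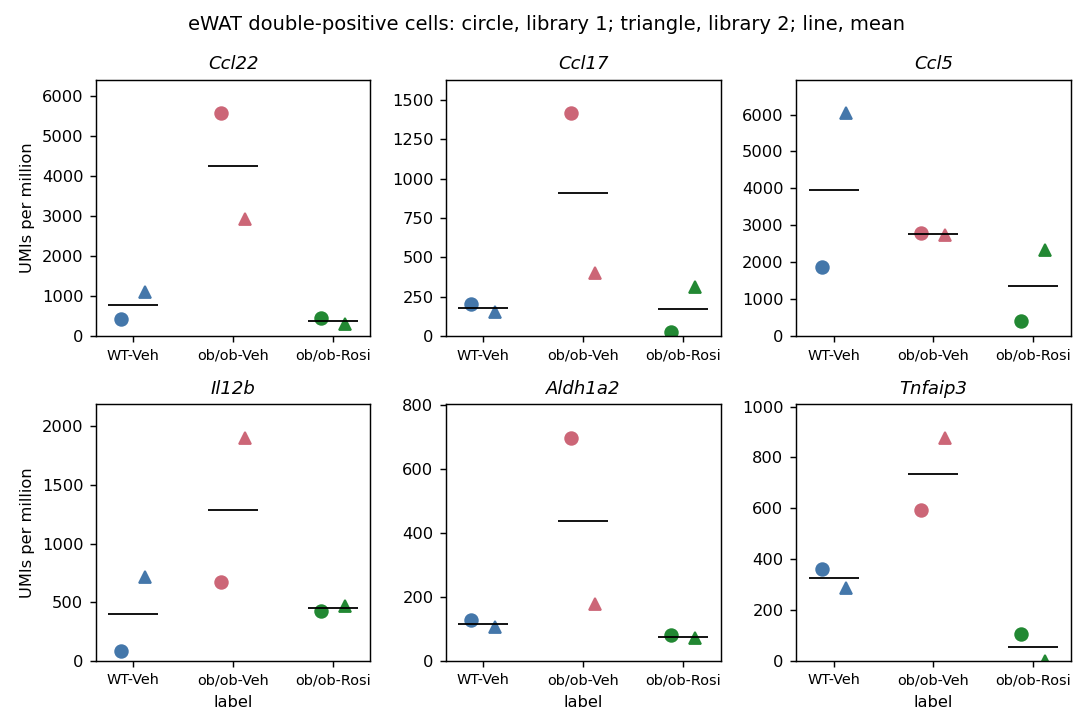
CPM (vertical axes, from 0) of 6 genes in the summed double-positive cells of each eWAT library by label, with circles for replicate 1, triangles for replicate 2 and lines for the mean of 2 libraries. Ccl22 and Tnfaip3 are highest in both libraries labelled ob/ob-Veh, while Ccl5 and Il12b overlap between labels.

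Retnla, Naaa, Dab2 and the eosinophil-type ribonuclease Ear2 were called lower as well; all 4 are high in ob/ob-Veh 1, and their levels under ob/ob-Rosi were 133 and 10.1, 26.7 and 10.1, 214 and 40.4, and 53.4 and 0 CPM. Among the genes called higher, Col3a1, a fibrillar collagen, stood at 57.1 and 149 under ob/ob-Veh and 2456 and 4737 under ob/ob-Rosi (log2 fold change 6.29 ± 0.79, edgeR adjusted p = 9.44e-13; 5.08 ± 0.68 and 0.0262 with 5 or more cells). Of the Col3a1 UMIs 95.7% and 97.0% came from 1 cell in each ob/ob-Rosi library, and 168 and 164 CPM remain without that cell. Fabp4 stood at 91.3 and 223 against 561 and 6323, with 570 of the 626 UMIs of ob/ob-Rosi 2 in 1 cell and 604 CPM without it. Serpinh1, the collagen chaperone, stood at 0 and 29.7 against 400 and 505. All 15 Serpinh1 UMIs of ob/ob-Rosi 1 came from 1 cell, and 0 CPM remain there without it. Star, the mitochondrial cholesterol transporter, had 49 UMIs in ob/ob-Rosi 2, all in 1 cell, and 0 in the other 5 eWAT libraries.

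Stromal RNA moved with this comparison, and nearly all of it came from 1 cell in each ob/ob-Rosi library. The 8 stromal markers took 4.00 and 32.7 of 10000 UMIs in the ob/ob-Veh double-positive cells and 78.5 and 141 under ob/ob-Rosi, and 6 of the 7 tested, Col1a1 and Col1a2 among them, were called higher. In ob/ob-Rosi 1, 277 of the 294 stromal UMIs came from 1 cell of 13692 UMIs, and in ob/ob-Rosi 2, 1337 of 1394 from 1 cell of 13538 UMIs. Each of these 2 cells carried 5 of the 27 programme genes, with 1 UMI of Ccr7 and 1 and 4 of Fscn1. Without the highest cell of each library the stromal markers took 3.73 and 19.2 of 10000 UMIs under ob/ob-Veh and 7.15 and 6.67 under ob/ob-Rosi, and the labels overlap. Without the 15 cells Col3a1, Sparc and Serpinh1 were not called, at log2 fold changes of 1.52, 1.79 and 6.95 at 10 cells a library (adjusted p = 0.371, 0.111 and 0.348), and neither was Fabp4, at 2.00 (0.102). Other matrix genes stayed called higher there, though leaving out high cells does not remove RNA spread thinly over most cells. Mgp was called at 10 and at 5 cells (adjusted p = 2.45e-05 and 0.000283) and with the limit of 50 (1.26e-05 and 0.00261), and Bgn, the proteoglycan biglycan, at 10 cells with both limits (0.00278 and 0.00759) but not at 5 (0.115 and 0.0699). Apoe, at 114 and 208 CPM under ob/ob-Veh and 8595 and 1505 under ob/ob-Rosi, was called higher in all 4 of these fits, at log2 fold changes of 2.96 to 3.58. With at least 2 UMIs of both Ccr7 and Fscn1 required, in libraries with 5 or more such cells, Col1a1 and Col1a2 lay on the other side, at log2 fold changes of -0.52 and -1.30. Trem2 and Gpnmb, at 0 UMIs in both libraries labelled ob/ob-Veh, had 9 and 21 and 10 and 17 under ob/ob-Rosi and were called higher, also without the 15 cells. With the limit of 50 only Trem2 was called, at 10 cells (adjusted p = 0.00556; 0.0791 at 5).

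Endothelial RNA moved with the rosiglitazone comparisons too. The 8 endothelial markers took 0.157 and 0.151 of 10000 UMIs under WT-Veh, 0.114 and 0.446 under ob/ob-Veh and 1.33 and 7.47 under ob/ob-Rosi, where 70 of the 74 UMIs of ob/ob-Rosi 2 came from 1 cell, the one that held most of its Fabp4. Of 6 tested markers 1 was called higher in each comparison at 10 cells, against ob/ob-Veh and against WT-Veh. All 6 lay above 0, with median log2 fold changes of 4.95 and 4.86, and 4 and 5 of them had an unadjusted p under 0.05. Without the highest cell of each library the markers took 0 and 0.172 of 10000 UMIs under ob/ob-Veh and 0.421 and 0.432 under ob/ob-Rosi. Endothelium also expresses Fabp4. Beyond the fits without such cells, the part of stromal, macrophage and endothelial RNA in these calls, free RNA included, was not tested.

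The double-positive cells labelled ob/ob-Rosi were then set against lean WT-Veh. edgeR called 38 of 1760 genes, 31 higher and 7 lower (2.16%), and 0 of 2035 with 5 or more cells (0%; with 98 up and 52 down at p under 0.05 before adjustment, and 3 called by DESeq2). Without the 15 cells high in another lineage edgeR called 21 of 1462 (1.44%) and 3 of 1679 at 5 cells (0.179%), and with the limit of 50 it called 26 of 1440 (1.81%) and 1 of 926 (0.108%). In this comparison too ob/ob-Rosi is replicate 2 alone at 10 cells, and Gm42418 and AY036118 were called lower, at log2 fold changes of -4.38 and -5.61. Over the 27 programme genes the median log2 fold change at 10 cells was -0.41 beside -0.11 over all genes, with 24 below 0. With 5 or more cells it was -0.66 beside -0.04, with 23 of 26 below 0. None of the 27 programme genes was called by edgeR with 10 or 5 cells (3 of them at an unadjusted p under 0.05 with 10 cells and 7 with 5, all lower), and Samsn1 was called lower at 10 cells without the 15 cells (log2 fold change -2.07, adjusted p = 0.00100; 0.844 at 5). Ccl22 differed by a log2 fold change of -1.29 ± 0.59 (adjusted p = 0.503), with 313 to 454 CPM against 425 to 1105. Of the 31 genes called higher, 6 were stromal markers, Col3a1 at 3.76 ± 0.52 and Col1a1 at 4.33 ± 0.64 among them; with 2 UMIs of both Ccr7 and Fscn1 required they were at -1.49 and -1.07, and without the 15 cells at -0.53 and -0.65. Tnfaip3, at 23 and 19 UMIs under WT-Veh, was called lower (adjusted p = 0.000141), and so was Apoe (-2.50 ± 0.48), whose levels overlap once ob/ob-Rosi 1, at 8595 CPM, is counted. Of the 322 Apoe UMIs of ob/ob-Rosi 1, 279 came from 1 cell. Without the highest cell of each library Apoe stood at 9997 and 1808 CPM under WT-Veh and 1459 and 1154 under ob/ob-Rosi, which do not overlap. Without the 15 cells Apoe was called lower at 10 cells (-1.55, adjusted p = 0.00126; 0.152 at 5), and with the limit of 50 it was not (-0.40, 0.815).

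The remaining gene groups showed few or no calls in the 3 eWAT comparisons at 10 cells. Of 79 tested ribosomal protein genes, 13 MHC class I and peptide-loading genes, 7 genes of cDC2 and 6 chemokine receptor and adhesion genes, edgeR called 0 in each comparison, with at most 2 of a group at an unadjusted p under 0.05. Of 25 tested genes of oxidative phosphorylation, the respiratory chain, 1 was called, Ndufa1, lower under ob/ob-Rosi than under ob/ob-Veh. Of 4 tested cDC1 genes only Naaa was called, and of 9 genes of antigen uptake only Ctsb and Ctsd. Of 3 tested genes of LXR signalling and cholesterol and 3 interferon-stimulated genes, 0 were called and 0 had an unadjusted p under 0.05, and most genes of these groups were too low to test. DESeq2 called 2, 6 and 2 genes in all over the 3 comparisons. A call of 0 here does not show that levels were alike. On simulated data for ob/ob-Veh against WT-Veh 44.0% of 8-fold changes were found at 10 cells. That simulation used the eWAT libraries alone and was not run for the other comparisons.

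Between depots, genes were compared under WT-Veh alone, the one label with 10 cells in a library of each depot, where the iWAT side is the 1 library whose cells lacked the programme. The comparison therefore describes those 11 cells. They were lower in many maturation genes and in some genes of antigen presentation and NF-kB. They were higher in endothelial genes and in some stromal and lipid-handling genes. Fewer of the maturation, NF-kB and stromal genes were called with 5 or more cells, and none of the PPAR response list, which holds the lipid-handling genes. edgeR called 215 of 1760 genes, 111 higher and 104 lower in iWAT (12.2%), and 52 of 2035 with 5 or more cells (2.56%). Of the 27 programme genes, 18 were lower and 0 higher, with a median log2 fold change of -4.82 beside -0.10 over all genes.

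Tbc1d4, Il4i1, Cacnb3 and Il12b had 0 UMIs in the 11 cells and between 5 and 82 in each of the 2 eWAT libraries labelled WT-Veh. The transcriptional regulator Id2 and the interferon-induced Epsti1 were also at 0 there, against 51 and 59 and 39 and 93 UMIs. Cd74, the invariant chain of MHC class II, was lower by a log2 fold change of -2.69 ± 0.43, and H2-Aa and H2-Eb1, its partner chains, by -2.42 ± 0.47 and -2.45 ± 0.51 (edgeR adjusted p at most 5.92e-05); all 3 were also called with 5 or more cells. Of 12 tested NF-kB genes 4 were lower, Relb at -3.39 ± 1.04 and Traf1 at -5.34 ± 1.06 among them. Of 6 tested endothelial markers all 6 were higher, and Kdr, Flt1, Cdh5 and Egfl7, all genes of the vessel lining, had 39, 35, 33 and 23 UMIs in iWAT and 0 in both eWAT libraries labelled WT-Veh.

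Whether an eWAT effect differed from that in other dendritic cells was tested against cDC1 and cDC2 of the same libraries, summed, with the library as a block. At 10 cells ob/ob-Veh is replicate 1 alone and ob/ob-Rosi replicate 2 alone, so label and replicate number cannot be told apart. RNA of other cell types was also found in this comparison class. Cells gated as cDC2 held 72.4 and 58.3 of 10000 UMIs of macrophage and stromal markers, and cDC1 14.0 and 15.3. Genes of cDC2 took 56.3 of 10000 UMIs in the cDC2 gate and 55.7 in macrophages. With at least 10 cells of both classes the interaction was called for 8 of 5880 genes in ob/ob-Veh against WT-Veh (0.136%), 60 in the change from ob/ob-Veh to ob/ob-Rosi (1.02%) and 27 in ob/ob-Rosi against WT-Veh (0.459%). With at least 5 cells it was called for 7, 63 and 5 of 5323 (0.132%, 1.18% and 0.0939%). The Ccl22 difference between ob/ob-Rosi and ob/ob-Veh was larger in the double-positive cells, by a log2 difference of -3.11 ± 0.79 (edgeR adjusted p = 0.0131) and of -2.83 ± 0.52 with 5 or more cells (0.00272). In the other dendritic cells Ccl22 stood at 28.0 and 28.0, 58.3 and 59.1, and 34.5 and 27.6 CPM in the order of labels, so there too ob/ob-Veh was highest. Tnfaip3 stood at 228 and 104, 322 and 241, and 214 and 118 CPM in these other dendritic cells. Aldh1a2 stood at 28.0 and 3.66, 60.7 and 36.1, and 20.7 and 11.1. In both genes ob/ob-Veh was highest in the other dendritic cells as well.

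The higher Ccl22 under ob/ob-Veh was not shown to differ from that in other dendritic cells (log2 difference 2.00 ± 0.68, adjusted p = 0.481; 0.271 with 5 or more cells). Fabp5, a fatty acid chaperone, did differ in both comparisons. In the double-positive cells it stood at 2440 and 2361, 1529 and 2111, and 1468 and 1010 CPM, and in the other dendritic cells at 284 and 271, 24.1 and 56.1, and 242 and 175. The low ob/ob-Veh level of the other dendritic cells was thus not found in the double-positive ones, with log2 differences of 2.99 for ob/ob-Veh against WT-Veh and -3.48 for ob/ob-Rosi against ob/ob-Veh. Of the Fabp5 UMIs, 70 of 142 in ob/ob-Veh 2 and 35 of 55 in ob/ob-Rosi 1 came from 1 cell. Without the highest cell of each library 1171 and 1359 CPM of Fabp5 remain under ob/ob-Veh. Gpr183, a receptor for oxysterols that positions dendritic cells, was at 263 and 223 CPM under ob/ob-Veh and at 53.4 and 20.2 under ob/ob-Rosi, against 20.7 and 30.1 and 94.3 and 77.4 in the other dendritic cells (log2 difference -5.62). These levels rest on few UMIs. Gpr183 had 23 UMIs in 6 of 12 cells of ob/ob-Veh 1 and 15 in 3 of 8 cells of ob/ob-Veh 2, 8 of them in 1 cell. In ob/ob-Rosi 1 it had 2 UMIs, both in 1 cell.

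Apoe, Col3a1 and Sparc also differed. Apoe differed by a log2 difference of -4.95 in ob/ob-Veh against WT-Veh and by 4.54 in ob/ob-Rosi against ob/ob-Veh, beside 1642 to 4825 CPM in the other dendritic cells of all 6 eWAT libraries. Col3a1 and Sparc, a collagen and a collagen-binding protein, had log2 differences of 6.15 and 5.30 in ob/ob-Rosi against ob/ob-Veh, with the Col3a1 UMIs in single cells as given above. These interactions were not fitted without the cells high in another lineage.

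Over the 8 libraries with at least 5 double-positive cells, the genes ranked most like Ccl22 were Sema4a, a membrane semaphorin that acts on T cells (Spearman's rho 0.976), Cd52, a small surface glycoprotein of leukocytes (0.952), and Adap1, M6pr and Rps27l (0.929 each, tied with Ubxn2a). Sema4a stood at 31.5 and 106 CPM under WT-Veh, 240 and 193 under ob/ob-Veh and 80.1 and 10.1 under ob/ob-Rosi in eWAT, and at 0 in WT-Veh 1 and 36.9 in ob/ob-Rosi 2 of iWAT. The order is a description over 8 points that differ in depth, in number of cells and in the share of other RNA.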

How the data were processed

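SVF libraries were made by the authors with 10x 3′ v3.1 chemistry, and UMI counts per gene and barcode were deposited; per the submitters' notes, bcl2fastq 2.19.1.403 and Cell Ranger 3.0.2 with mm10 were used. The iWAT count matrices had been filtered by the authors before deposit. Barcodes with 700 to 22000 UMIs, 200 to 6000 genes and under 25% mitochondrial UMIs were kept, and no doublet caller was run. The double-positive cells and the 28 gene lists were chosen with earlier results of these data known; Ccl19 and Aldoa, whose symbols are repeated, were left out.

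Counts were summed per library and tested with edgeR 4.0.16 (quasi-likelihood, TMM, Benjamini-Hochberg adjustment over all genes tested; R 4.3.3, limma 3.58.1), without the genes of the selection; DESeq2 1.42.0 was an alternative. Cell numbers were tested over 9 classes, and exact permutation tests and intervals used scipy 1.17.1. Because 10 cells a library left 5 libraries, a fit at 5 cells was added after the data were seen, as were fits without 15 or 26 cells high in markers of another lineage. Named genes are the programme, the 8 largest called changes per direction that do not overlap between groups at 50 or more CPM (counts per 1000000 UMIs), up to 4 called genes per list and the 5 most like Ccl22; the text names those the results turn on. On simulated data for ob/ob-Veh against WT-Veh in eWAT, 12.5% of 4-fold and 44.0% of 8-fold changes were recovered with 10 cells a library, and 44.0% and 83.0% with 5, among 1663 and 1153 genes. False calls numbered 0 and 1 with 10 cells and 3 and 11 with 5. The simulation used the eWAT libraries alone, a set that differs from that of the fits above. Intervals cover counting error only, and the study's text treats the libraries as individual mice.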

Additional observations from a re-analysis of the deposited data

Results flagged for a closer look

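The change in the number of double-positive cells from WT-Veh to ob/ob-Veh differed between depots on the log scale, with a log2 difference of -4.75 for iWAT minus eWAT (edgeR adjusted p = 0.0441). The iWAT ob/ob-Veh libraries hold 0 cells, so this fitted value depends on the prior count, and on the linear scale the difference of the 2 changes was -0.146 per 10000 cells.

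The other results to look at again are genes whose eWAT effect differed between the double-positive cells and other dendritic cells, given as log2 differences. From WT-Veh to ob/ob-Veh they were Fabp5 (2.99) and Apoe (-4.95). From ob/ob-Veh to ob/ob-Rosi they were Ccl22 (-3.11), Fabp5 (-3.48), Gpr183 (-5.62), Apoe (4.54), Col3a1 (6.15) and Sparc (5.30). From WT-Veh to ob/ob-Rosi they were Col3a1 (4.01) and Sparc (4.86). With 2 libraries a group, no test for a single library standing apart was possible.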

How the results depend on the processing

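Few cells set the limits here. With 1 residual degree of freedom at 10 cells a library and 3 at 5, most gene calls are not past the threshold when more libraries are used, and a fold carried by a few cells can be missed or made by 1 of them.

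For the number of cells in eWAT, ob/ob-Veh against WT-Veh was 2.22 per 10000 with cells thinned to 700 UMIs and 1.40 with only the 4 cells free of other lineages, in place of -3.59; ob/ob-Rosi against ob/ob-Veh was 280 per 10000 dendritic cells and 0.173 over all deposited barcodes, in place of -0.517. In iWAT, ob/ob-Veh against WT-Veh was -0.586 thinned to 700 UMIs (edgeR adjusted p = 0.245), -0.508 with 2 UMIs of Ccr7 and Fscn1 (0.638), -5.23 over Ptprc-positive cells (0.0971), -1.09 with 2 UMIs of other maturation genes (0.196) and -3.73 with the replicate block (0.509). ob/ob-Rosi against WT-Veh in iWAT was 0.396 thinned to 2000 UMIs, 0.580 with 2 UMIs of both genes, 0.938 over Ptprc-positive cells and 0.280 with 2 UMIs of other maturation genes, in place of -1.27. The depot difference was -1.59 thinned to 700 UMIs and -0.692 with other lineages left out (adjusted p = 0.193 and 1.00). The causes were not tested. Leaving out 1 library at a time gave -5.29 to -1.88, -3.23 to 2.20 and -6.82 to -1.39 in eWAT for the obesity comparison (ob/ob-Veh with WT-Veh), the drug comparison (ob/ob-Rosi with ob/ob-Veh) and the drug-to-lean comparison, -6.45 to -1.02, 2.07 to 2.86 and -3.98 to 1.45 in iWAT, and -11.6 to -9.76 between depots. Single reversals were 2.20 without eWAT ob/ob-Rosi 1, 0.869 without eWAT ob/ob-Veh 1 and 1.45 without iWAT WT-Veh 1. Without either iWAT WT-Veh library, ob/ob-Rosi against ob/ob-Veh in iWAT, 2.46, passed the test (adjusted p = 0.0330 and 0.0365).

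For genes, in the order of the obesity, drug, drug-to-lean and depot comparisons, 27, 50, 38 and 215 were called. DESeq2 called 2, 6, 2 and 19, and thinning to 2000 UMIs left 0, 0 and 0. With 5 cells a library 0, 3, 0 and 52 were called, 9, 13, 3 and 46 by DESeq2, 4, 5, 1 and 72 with no filter, 0, 4 and 0 with 2 UMIs of Ccr7 and Fscn1, and 0, 0 and 0 without the cells that had 1 UMI of both. Without the 15 cells high in another lineage 49, 66 and 21 were called at 10 cells and 9, 29, 3 and 53 at 5, and with the limit of 50 it was 37, 61 and 26 at 10 cells and 6, 25 and 1 at 5. The numbers were not taken to pair the libraries, since 1 of the 3 correlations between same-numbered libraries (0.061, 0.129 and 0.138) was under 0.1, and at 5 cells in eWAT alone the replicate block gave 1, 26 and 0 calls and no block gave 0, 0 and 0. Leaving out 1 library gave 24 to 31, 49 to 49, 41 to 43 and 208 to 238 calls at 10 cells. It gave 0 to 0, 0 to 6, 0 to 2 and 0 to 54 at 5 cells. At 10 cells only a library outside the comparison could be left out, since no fit remained without a compared one. Whether the calls at 10 cells depend on a single compared library was therefore not tested by these ranges. The difference from other dendritic cells was called for 2, 6 and 3 genes by DESeq2, for 7, 63 and 5 with 5 cells, and for 12 to 42, 67 to 172 and 17 to 31 with 1 library left out.

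All settings at 5 cells and those without cells high in another lineage were chosen after seeing the data. Of the named genes, 50 values reversed. With 2 UMIs of both genes Col1a2 was -1.30 and Col1a1 -0.524 in the drug comparison, with Col3a1 -1.49, Fabp4 -0.465 and Col1a1 -1.07 in the drug-to-lean comparison. Without the 15 cells the drug-to-lean comparison gave -0.526 for Col3a1, -0.365 for Fabp4 and -0.649 for Col1a1 at 10 cells and -0.871, -0.312 and -0.224 at 5, and at 5 cells Ighm was 1.09 in the obesity comparison and Col1a2 -1.25 in the drug comparison. With the limit of 50 the drug-to-lean comparison gave -0.333, -0.209 and -0.787 at 10 cells, and -0.653 for Col3a1, -0.0987 for Fabp4 and 0.116 for Gm42418 at 5, Col1a1 was -0.100 in the drug comparison and Retnla -0.0264 at 5 cells in the obesity comparison. AY036118 in the drug comparison was 0.174 at 5 cells, 0.401 with DESeq2, 0.0764 with no filter, 0.318 with the replicate block, 0.373 in eWAT alone and 0.0197 without the cells of 1 UMI of both, and in the drug-to-lean comparison 0.105 with DESeq2 and 0.123 in eWAT alone, where Gm42418 was 0.0188 in eWAT alone and 0.276 without the cells of 1 UMI of both. With 1 library left out, at 10 or 5 cells, the obesity comparison ran from -6.71 to 0.677 for Bgn, -6.43 to 0.370 for Mfap5, -4.90 to 0.743 for Ighm and -5.10 to 3.76 for Dab2, the drug comparison from -4.28 to 5.75 for Dab2, and the drug-to-lean comparison from -0.807 to 2.73 for Fabp4 and -2.47 to 1.43 for Apoe, which was 0.0465 without ob/ob-Rosi 2. Gm42418 ran from -3.01 to 3.72, -6.38 to 2.95 and -4.35 to 2.54 over the 3 comparisons and AY036118 from -6.32 to 5.10 and -5.59 to 2.44 over the latter pair. The reversals came without WT-Veh 1 for Bgn, Ighm and Apoe, without ob/ob-Veh 1 for Mfap5 and Dab2 and without ob/ob-Rosi 2 for Fabp4 and Apoe, and without several libraries for Gm42418 and AY036118. Another 1023 values kept direction and side of the threshold, 862 kept the direction alone and 14 passed the threshold newly.

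These alternatives gave no value: 20 cells a library, 10 cells with the stricter gate, the replicate block or without other lineages, leaving out either eWAT WT-Veh library at 10 cells, gene comparisons within iWAT at 10 cells or with ob/ob-Veh, and the depot comparison over all 3 labels.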
